A study of Homo sapiens with 12 samples.

Results

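The mRNA levels of 10 core proteins of matrix and secreted proteoglycans, VCAN, BGN, DCN, LUM, CSPG4, HSPG2, AGRN, SRGN, ACAN and SPOCK1, were examined in HEYA8 ovarian cancer cells. The genes were taken from a list of names, drawn up with earlier results of these data known but with no measured value in its rule, and all 10 were found among the 56269 genes of the count table. RNA-seq had been done on 12 libraries of HEYA8, an established cell line that the labels give as ovary and high grade serous ovarian cancer. Growth was in RPMI-1640 with 10% FBS, at what the study calls steady state. The cells carried a control vector or a stably expressed form of betaglycan (BG, encoded by TGFBR3), a TGF-β co-receptor that is itself a proteoglycan. In the ∆GAG-BG group both serines that carry glycosaminoglycan (GAG) chains were changed to alanine (genotype label: deleted GAG), in S534A (CS-BG) only the first of them, and in S545A (HS-BG) only the second. The study used these groups to ask what each kind of GAG chain on BG does.

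Each group had 3 libraries. The BG constructs were delivered by a lentiviral vector with a dTomato reporter, and infected cells were sorted by dTomato, so each BG group is a sorted population and not a set of separate clones. How the control vector was delivered is not given in the sources used here. The design text calls the libraries biological replicates, but the sources used here do not say that they came from separately made populations, so p-values measure the spread between these libraries, which may be technical. The third S545A library is titled S545S, and its genotype label reads S545A.

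A proteoglycan is a core protein to which chains of heparan sulfate (HS), chondroitin sulfate (CS), dermatan sulfate or keratan sulfate are attached, for HS and CS at serines that are usually followed by glycine. Agrin (AGRN) and perlecan (HSPG2) carry HS in basement membranes. Versican (VCAN) and aggrecan (ACAN) are large hyaluronan-binding CS proteoglycans, and decorin (DCN), biglycan (BGN) and lumican (LUM) are small leucine-rich proteoglycans that bind collagen and, for decorin and biglycan, also TGF-β. The mRNA measured here is that of the core protein and says nothing of the chains on it.

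The libraries held 16410001 to 29504297 counts each, and a count of 0 is compatible with up to 3 counts, at most 0.182 CPM in the shallowest library, for counting error only. CPM are read counts scaled to library size and, here, by TMM factors of 0.977 to 1.017. The check of the construct went against the labels in part. TGFBR3 stood at 413 to 476 CPM in the S534A libraries and 520 to 574 CPM in the S545A libraries, but at 260, 20.3 and 21.4 CPM in the libraries labelled ∆GAG-BG and at 15.9, 259 and 259 CPM in those labelled control vector. Libraries 2 and 3 differed little from each other in control vector, ∆GAG-BG and S545A (chi-square per degree of freedom 1.37 to 1.89), and library 1 stood apart. The other pairs of libraries in a group had 15.6 to 69.1, where sampling noise alone gives 1. In S534A it was library 2 that stood apart, at 60.6 from library 1 and 69.1 from library 3. Libraries 1 and 3 of S534A differed by 15.6. Of the 9 defining and epithelial markers of the labelled tissue, PAX8 lay at 193 to 295 CPM and KRT7 at 746 to 1140 CPM. KRT8 lay at 688 to 1007 CPM and KRT18 at 451 to 675 CPM. WT1 was lower, at 3.42 to 8.38 CPM, EPCAM lay at 0.367 to 1.77 CPM and KRT19 at 0.141 to 0.789 CPM. MUC16 and CDH1 held no counts, so 2 of the 9 were at 0. Of the 9 mesenchymal and fibroblast markers, VIM lay at 2343 to 3132 CPM and CDH2 at 115 to 150 CPM. FAP lay at 20.0 to 28.5 CPM, COL1A1 at 7.98 to 17.7 CPM and PDGFRB at 0.701 to 5.04 CPM. COL1A2, PDGFRA and THY1 had means of 0.0225, 0.0420 and 0.0546 CPM and COL3A1 a median of 0. The 5 blood cell markers summed to at most 0.136 CPM, and the 4 endothelial markers to 175 to 448 CPM, most of it CDH5 at 168 to 431 CPM. The other endothelial markers were lower, VWF at 2.64 to 14.9 CPM, KDR at 2.00 to 3.77 CPM and PECAM1 at 0.205 to 0.768 CPM. In bulk RNA, fewer cells of a type and less RNA per cell cannot be told apart.

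The coding sequences of the core proteins differ in how often and how densely they hold the codon pair at which chains can be attached. A serine codon followed by a glycine codon, the pair at which HS and CS chains are usually attached, occurred 8 times in the 158 codons of serglycin (SRGN), the proteoglycan of secretory granules, and 6 of the 8 stood in unbroken succession. That stretch is shown because SRGN also had the highest level per length of the 10 genes. It spans codons 97 to 114 of ENST00000242465.3, on the plus strand of GRCh38 at chr10:69103932-69103985, an exonic coding region of GENCODE release 29, with the 6 pairs in capitals.
SRGN: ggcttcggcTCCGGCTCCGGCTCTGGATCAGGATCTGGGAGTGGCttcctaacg
ACAN held 163 such pairs in 2568 codons, 6.35 per 100 codons against 5.06 for SRGN, but none of its runs was longer than 2 pairs. In the other core proteins the pairs were thinner, 53 in 4391 codons of HSPG2, 28 in 3396 of VCAN, 23 in 2045 of AGRN, 12 in 2322 of CSPG4, 5 in 368 of BGN, 3 in 359 of DCN, 3 in 338 of LUM and 2 in 439 of SPOCK1. A pair is a codon pattern and not a proven attachment site.

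RefSeq promoters of GRCh38.p14 were matched for 5 of the 10 genes (VCAN, BGN, CSPG4, HSPG2 and ACAN). The 120 bases just before the start are shown for CSPG4 and HSPG2, which were expressed, and for ACAN, which held no counts, with CG dinucleotides in capitals.
CSPG4 (minus strand, chr15:75712849-75712968): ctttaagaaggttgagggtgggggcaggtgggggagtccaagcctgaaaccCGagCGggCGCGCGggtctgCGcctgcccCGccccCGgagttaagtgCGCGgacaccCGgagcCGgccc
HSPG2 (minus strand, chr1:21937311-21937430): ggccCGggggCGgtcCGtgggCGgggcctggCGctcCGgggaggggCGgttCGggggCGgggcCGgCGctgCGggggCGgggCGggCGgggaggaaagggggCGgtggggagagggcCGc
ACAN (plus strand, chr15:88803316-88803435): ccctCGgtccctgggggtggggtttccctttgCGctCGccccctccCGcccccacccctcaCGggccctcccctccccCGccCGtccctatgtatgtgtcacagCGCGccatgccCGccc
The shown windows held 12, 17 and 10 CG dinucleotides. Over the whole 300-base window HSPG2 held 44 and ACAN 33, more than CSPG4 with 19, BGN with 19 and VCAN with 15, where the median of 35116 promoters was 14. The letters GGGCGG, searched on both strands, stood in 5 of the 5 windows and in 45.0% of all promoters. TATAAA stood in 0 of the 5 (11.5% of all) and CCAAT in 0 of the 5 (34.6% of all).

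Counts were found for 7 of the 10 core proteins, and their levels per length ran over more than 2 orders of magnitude. Length here is the summed exon length of the gene, whichever transcripts were made, which bears on the order of the genes. Mean CPM per kilobase of exon over the 12 libraries was 228 (range 176 to 250) for SRGN and 44.7 (39.6 to 51.1) for AGRN. It was 6.69 (SD 1.03, lowest 4.62) for CSPG4, a transmembrane CS proteoglycan also called NG2, and 4.29 (3.69 to 5.13) for HSPG2. VCAN, SPOCK1 (testican-1, a secreted proteoglycan) and BGN followed at 1.83 (0.961 to 3.77), 1.79 (0.811 to 3.44) and 0.350 (0.232 to 0.579) CPM per kilobase. SRGN stood above AGRN, AGRN above CSPG4, HSPG2 above VCAN and SPOCK1 above BGN in 12 of 12 libraries. CSPG4 stood above HSPG2 in 11 of 12, and their ranges overlapped only in S534A. VCAN stood above SPOCK1 in 9 of 12 with overlap in all 4 groups, so their order was within the spread of the libraries.

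**Figure D1:**
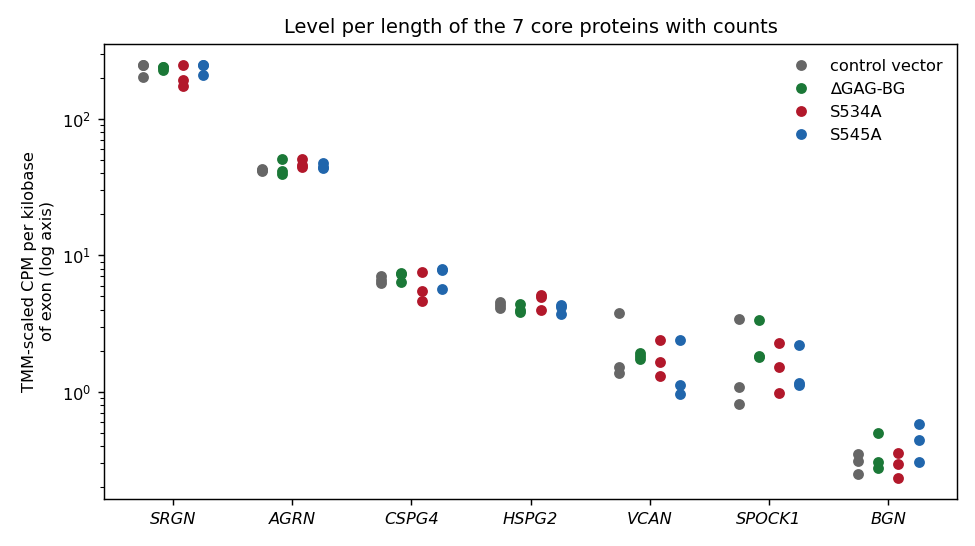
Level of the 7 core proteins with counts, as TMM-scaled CPM per kilobase of exon (vertical log axis), for each of the 12 libraries (points, colored by group). SRGN lies between 176 and 250 and AGRN between 39.6 and 51.1 in all groups, while VCAN and SPOCK1 overlap.

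DCN, LUM and ACAN held 0 counts in each of the 12 libraries, which allows at most 0.0103 CPM over all of them. DCN and LUM belong to a cluster of small leucine-rich proteoglycan genes on chromosome 12, whose other genes EPYC and KERA reached 0 counts and 1 count. Of 17 genes of that family, 5 were at 0 in every library (DCN, LUM, EPYC, FMOD and NYX), and 12 stayed under 10 counts in every library. The member with the most counts was TSKU (tsukushi), at 36.8 to 49.3 CPM, whereas BGN lay at 0.569 to 1.42 CPM. Over the whole table, 22366 genes (39.7%) held no counts in any library, so a gene at 0 is common, and no difference between groups could be measured for these 3 core proteins. All 37 mitochondrial genes are among those at 0. Whether processing has a part in the 0 of DCN, LUM and ACAN was not tested.

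The other 7 had enough counts to be tested, and 42 differences were tested (7 genes in 6 comparisons of groups). By edgeR's quasi-likelihood test none had an unadjusted p under 0.05, and the lowest Benjamini-Hochberg adjusted p was 0.702. The unadjusted share of all 16069 genes tested that passed 0.05 was 2.99% for S534A against ∆GAG-BG, 1.10% for S545A against ∆GAG-BG, 0.871% for ∆GAG-BG against control vector, 3.45% for S534A against control vector, 1.05% for S545A against control vector, and 4.78% when S545A was set against S534A, so 0 of 7 lay near the background in each. The share of all genes whose groups did not overlap was 5.66%, 5.05%, 4.87%, 7.65%, 8.82% and 10.1% in the same order, against 1 of 7 core proteins in each of the comparisons of S534A and S545A with control vector and 0 of 7 in the other 4. No gene of the table passed an adjusted p of 0.05 in any of the 6 comparisons by edgeR. By DESeq2 the number was 5 in S534A against ∆GAG-BG, 2 for S534A against control vector and 1 for S545A against S534A, and 0 of the 10 core proteins were among them. The median log2 fold change of the 7 core proteins was -0.21, 0.00, 0.06, -0.15, 0.02 and -0.06 in the 6 comparisons in that order, where the median of all genes tested lay between -0.01 and 0.01. The smallest two-sided exact permutation p that 3 libraries against 3 allow is 0.1.

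**Figure D2:**
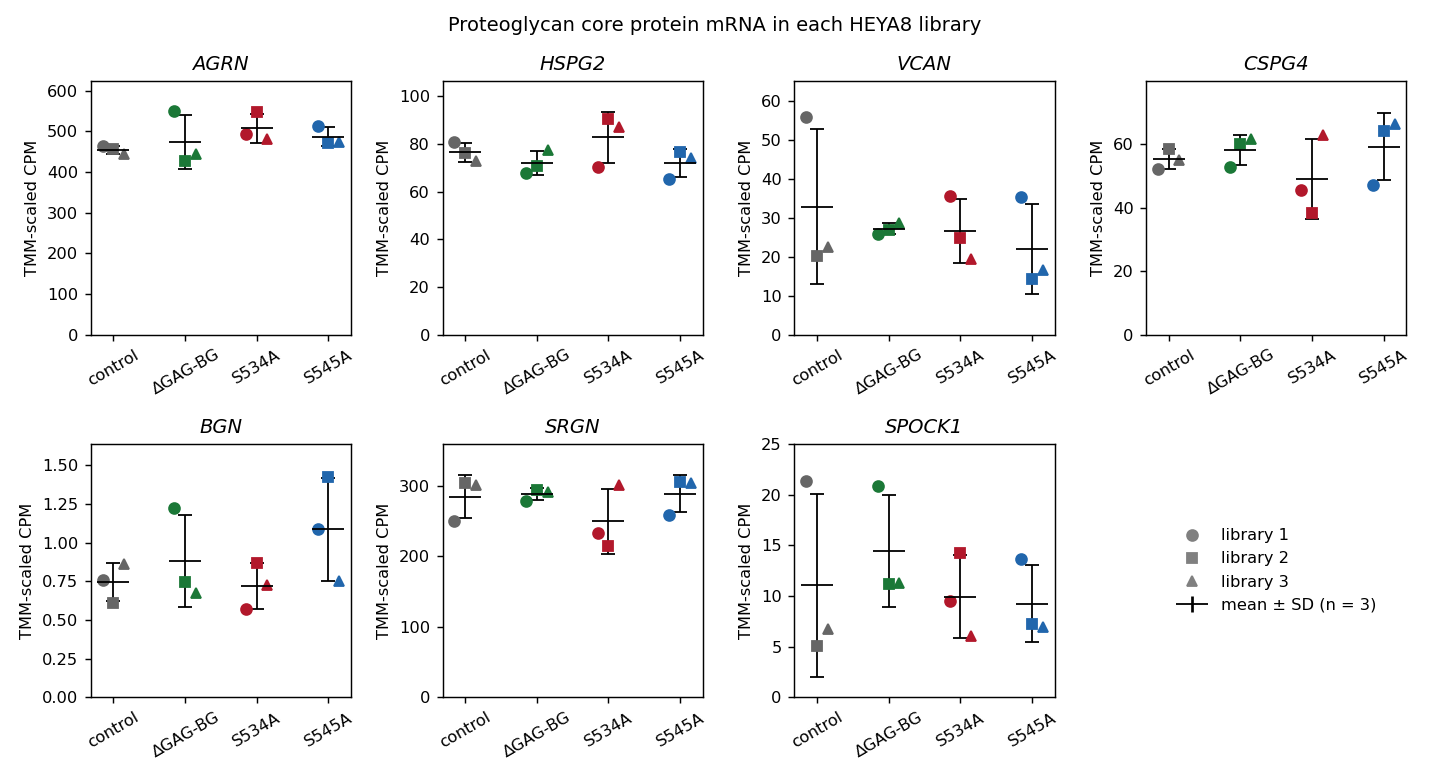
TMM-scaled CPM (vertical axes, from 0) of 7 core proteins in the control vector, ∆GAG-BG, S534A and S545A libraries, with a marker for library 1, 2 or 3 and bars for the mean ± SD (n = 3). The AGRN libraries of S534A (481 to 547) and S545A (472 to 513) lie above those of control vector (444 to 464), and the groups overlap for the other genes.

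AGRN, the HS proteoglycan that organizes acetylcholine receptors at the neuromuscular junction, was the steadiest of the 7. Its level was 464, 457 and 444 CPM in control vector, 550, 426 and 445 CPM in ∆GAG-BG, 494, 547 and 481 CPM in S534A, and 513, 472 and 475 CPM in S545A. All S534A and all S545A libraries lay above all control vector libraries, while the ∆GAG-BG libraries held both the highest and the lowest value of the 12. This was 1 of 7 core proteins in each of these comparisons, where 7.65% of all genes did not overlap for S534A against control vector and 8.82% for S545A against control vector. The mean of S534A was 508 ± 34.8 CPM (SD, n = 3) against 455 ± 10.1 CPM in control vector. The log2 fold change was 0.16 (SE 0.101, 95% interval -0.06 to 0.38), with an unadjusted p of 0.145 and an adjusted p of 0.871 by edgeR and an exact permutation p of 0.1. For S545A, at 487 ± 23.1 CPM, the log2 fold change was 0.10 (SE 0.101, 95% interval -0.12 to 0.32), with an adjusted p of 1.00 by edgeR. Without ∆GAG-BG library 1, the highest of all, S534A against ∆GAG-BG came to a log2 fold change of 0.22, with an unadjusted p of 0.0208 and an adjusted p of 0.891 by edgeR. That value rests on ∆GAG-BG libraries 2 and 3, whose TGFBR3 goes against their label. Without these libraries and those of control vector, the direction turned, to -0.12 for S534A against ∆GAG-BG (unadjusted p 0.420 by edgeR) and -0.18 for S545A against ∆GAG-BG (unadjusted p 0.229 by edgeR), from 0.10 and 0.04 with all libraries.

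HSPG2, whose perlecan core is a main HS carrier of basement membranes, was nearly as steady. It lay at 80.9, 76.1 and 73.0 CPM in control vector, 67.9, 70.7 and 77.7 CPM in ∆GAG-BG, 70.5, 90.7 and 87.3 CPM in S534A, and 65.2, 76.6 and 74.3 CPM in S545A. Libraries 2 and 3 of S534A were the highest of the 12, and library 1 of that group was among the lower values, so the groups overlapped. The log2 fold changes of the 6 comparisons ran from -0.20 to 0.20, and their 95% intervals from -0.43 to 0.43. S545A against S534A had the lowest unadjusted p of the 42 tests, 0.0828 by edgeR. Without S534A library 1 it came to -0.30 (unadjusted p 0.0123, adjusted p 0.670 by edgeR) and S534A against ∆GAG-BG to 0.30 (unadjusted p 0.0113, adjusted p 0.817 by edgeR). LDLRAD2, which overlaps HSPG2 on the other strand, reached 9 counts, against at least 1439 for HSPG2.

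VCAN, a CS proteoglycan of loose and provisional matrix, was among the most variable genes measured. It lay at 55.9, 20.3 and 22.4 CPM in control vector, 25.8, 26.9 and 28.7 CPM in ∆GAG-BG, 35.6, 24.7 and 19.4 CPM in S534A, and 35.3, 14.3 and 16.5 CPM in S545A. Library 1 held the highest value in control vector, S534A and S545A and the lowest in ∆GAG-BG. It stood 2.62-fold above the mean of libraries 2 and 3 in control vector and 2.29-fold in S545A, which is more than any 2 group means differed. In the 6 comparisons log2 fold changes ran from -0.58 to -0.03 with 95% intervals from -1.49 to 0.88. Without S545A library 1, S545A against control vector came to -1.10 (unadjusted p 0.0203, adjusted p 0.971 by edgeR).

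CSPG4, whose ectodomain can be shed from the cell surface as that of BG can, lay at 52.2, 58.7 and 55.1 CPM in control vector, 52.8, 60.2 and 61.6 CPM in ∆GAG-BG, 45.7, 38.3 and 63.0 CPM in S534A, and 47.1, 64.2 and 66.3 CPM in S545A. The 3 lowest values were libraries 1 and 2 of S534A and library 1 of S545A, while library 3 of S534A was among the highest, so S534A spanned nearly the whole range. Between groups the log2 fold changes ran from -0.25 to 0.28, with 95% intervals from -0.62 to 0.65. Without S534A library 3 the log2 fold change was -0.47 against ∆GAG-BG (unadjusted p 0.00918 by edgeR), -0.40 against control vector (unadjusted p 0.0209 by edgeR) and 0.50 for S545A against S534A (unadjusted p 0.00637, adjusted p 0.305 by edgeR). Without S545A library 1 the last of these was 0.42 (unadjusted p 0.0275 by edgeR). The 9 CSPG4 pseudogenes, 5 of them at 0, together held 3.19% to 7.81% as many counts as CSPG4. How reads shared between CSPG4 and its pseudogenes were counted was not tested, so these shares do not bound the uncertainty of its counts.

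BGN was barely detected, at 12 to 29 counts per library. It lay at 0.761, 0.613 and 0.861 CPM in control vector, 1.22, 0.743 and 0.677 CPM in ∆GAG-BG, 0.569, 0.868 and 0.728 CPM in S534A, and 1.09, 1.42 and 0.752 CPM in S545A. The highest mean was that of S545A, 1.09 ± 0.335 CPM, whose lowest library lay within the range of every other group. The coefficient of variation over the 12 libraries was 30.0%, where counting error alone would give 22.0%. Over the 6 comparisons the log2 fold changes ran from -0.29 to 0.56 with 95% intervals from -1.00 to 1.25. Without S545A library 3, S545A against control vector came to 0.73 (unadjusted p 0.0455, adjusted p 1.00 by edgeR) and against S534A to 0.78 (unadjusted p 0.0354, adjusted p 0.986 by edgeR).

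SRGN, best known from the granules of blood cells, was highly expressed in libraries whose blood cell markers were near 0. It lay at 250, 304 and 301 CPM in control vector, 279, 294 and 292 CPM in ∆GAG-BG, 234, 214 and 302 CPM in S534A, and 259, 305 and 304 CPM in S545A. Libraries 1 and 2 of S534A were the lowest, and library 3 of S534A lay with the upper values of the other groups. Differences between groups, as log2 fold changes, ran from -0.21 to 0.21 with 95% intervals from -0.49 to 0.49. Without S534A library 3 the log2 fold change was -0.36 against ∆GAG-BG (unadjusted p 0.00858 by edgeR), -0.35 against control vector (unadjusted p 0.0105 by edgeR) and 0.37 for S545A against S534A (unadjusted p 0.00740, adjusted p 0.305 by edgeR).

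SPOCK1 had the widest spread of the 7, a 4.24-fold ratio of highest to lowest library. It lay at 21.4, 5.04 and 6.70 CPM in control vector, 20.9, 11.2 and 11.3 CPM in ∆GAG-BG, 9.49, 14.2 and 6.07 CPM in S534A, and 13.6, 7.20 and 6.94 CPM in S545A. The highest and the lowest value were both in control vector, and library 1 was the highest in every group but S534A. The log2 fold changes ran from -0.64 to 0.38 with 95% intervals from -1.78 to 1.51. Without control vector library 1, ∆GAG-BG against control vector came to 1.30 (unadjusted p 0.0129, adjusted p 1.00 by edgeR), a value that rests on control vector libraries 2 and 3, whose TGFBR3 goes against their label. Without those and the same libraries of ∆GAG-BG it was -0.05 (unadjusted p 0.933 by edgeR).

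Where libraries 2 and 3 of ∆GAG-BG and control vector, whose TGFBR3 goes against their labels, were left out, each of these groups kept 1 library, which was assumed to vary like the other groups. SPOCK1 then had log2 fold changes of -1.17 for S545A against ∆GAG-BG (unadjusted p 0.0399 by edgeR), -1.11 for S534A against control vector (unadjusted p 0.0477 by edgeR) and -1.23 for S545A against control vector (unadjusted p 0.0325 by edgeR). For ∆GAG-BG set against control vector SPOCK1 turned in direction, from 0.38 to -0.05, and BGN in S545A against ∆GAG-BG from 0.28 to -0.19 (unadjusted p 0.671 by edgeR). VCAN in S534A against ∆GAG-BG (-0.03 to 0.04) and HSPG2 in S545A against ∆GAG-BG (0.00 to 0.08) changed sign near 0. VCAN came to -1.36 for S545A against control vector (unadjusted p 0.0236, adjusted p 0.887 by edgeR). Library 1 was high for SPOCK1 and VCAN in control vector, and for SPOCK1 also in ∆GAG-BG (20.9 CPM against 11.2 and 11.3 CPM in libraries 2 and 3). The part of library 1 in these values was not tested. Over 22 alternative settings, 12 of them leaving out a library, 18 of 672 values for the 7 genes had an unadjusted p under 0.05 and 0 an adjusted p under 0.05, the lowest adjusted p being 0.305. The 18 came from 7 settings, each without 1 or more libraries, and include the fit with 1 library in ∆GAG-BG and control vector. What share of all genes had an unadjusted p under 0.05 in these settings is not given here. So this count, and those for the related lists with a library left out, cannot be set against a background.

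**Figure D3:**
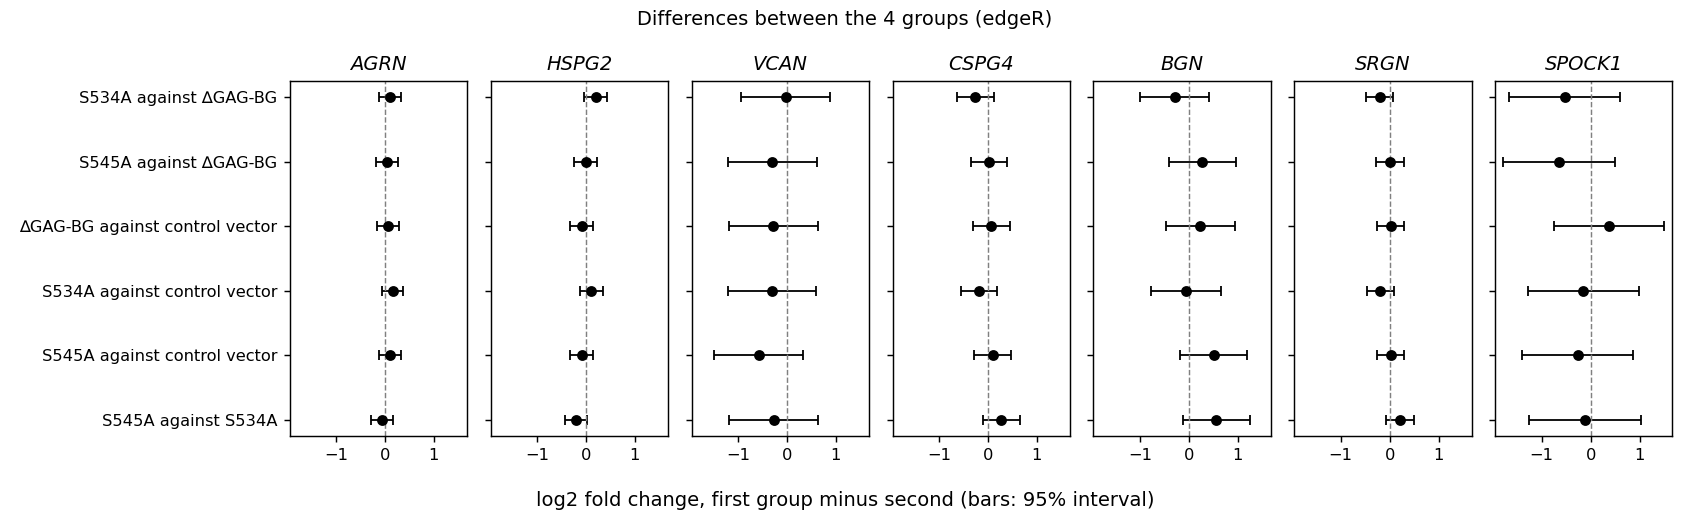
Log2 fold change (horizontal axes, first group minus second) of 7 core proteins in the 6 comparisons, with bars for the 95% interval from edgeR. The intervals of AGRN stay within -0.28 to 0.38 and those of SPOCK1 reach from -1.78 to 1.51, and every interval includes 0.

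The 7 genes differed in how steady they were. The within-group SD of log2 CPM was 0.729 for SPOCK1 and 0.577 for VCAN, larger than in 97.3% and 93.4% of the 16069 genes tested. It was 0.348 for BGN and 0.239 for CSPG4, and the median gene had 0.214. SRGN with 0.167, HSPG2 with 0.131 and AGRN with 0.116 were steadier than the median gene, and only 18.2% of genes had a smaller SD than AGRN. The reach of the 95% intervals fell in the same order.

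The levels of SRGN and CSPG4, which lie on different chromosomes, moved together from library to library. Pearson's r of their log2 CPM was 0.93 over the 12 libraries and 0.91 after each group's mean was taken out, a description over points that share library and scaling. Both were low in libraries 1 and 2 of S534A and in library 1 of every group, where SRGN stood at 0.825 to 0.952 and CSPG4 at 0.722 to 0.918 of the mean of libraries 2 and 3. VCAN and SPOCK1, both on chromosome 5, had r of 0.72 over the 12 libraries and 0.79 within groups. Those genes moved the other way in control vector and S545A, with library 1 at 3.64-fold the mean of libraries 2 and 3 for SPOCK1 in control vector and 1.92-fold in S545A. The basement membrane pair AGRN and HSPG2 had r of 0.04.

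**Figure D4:**
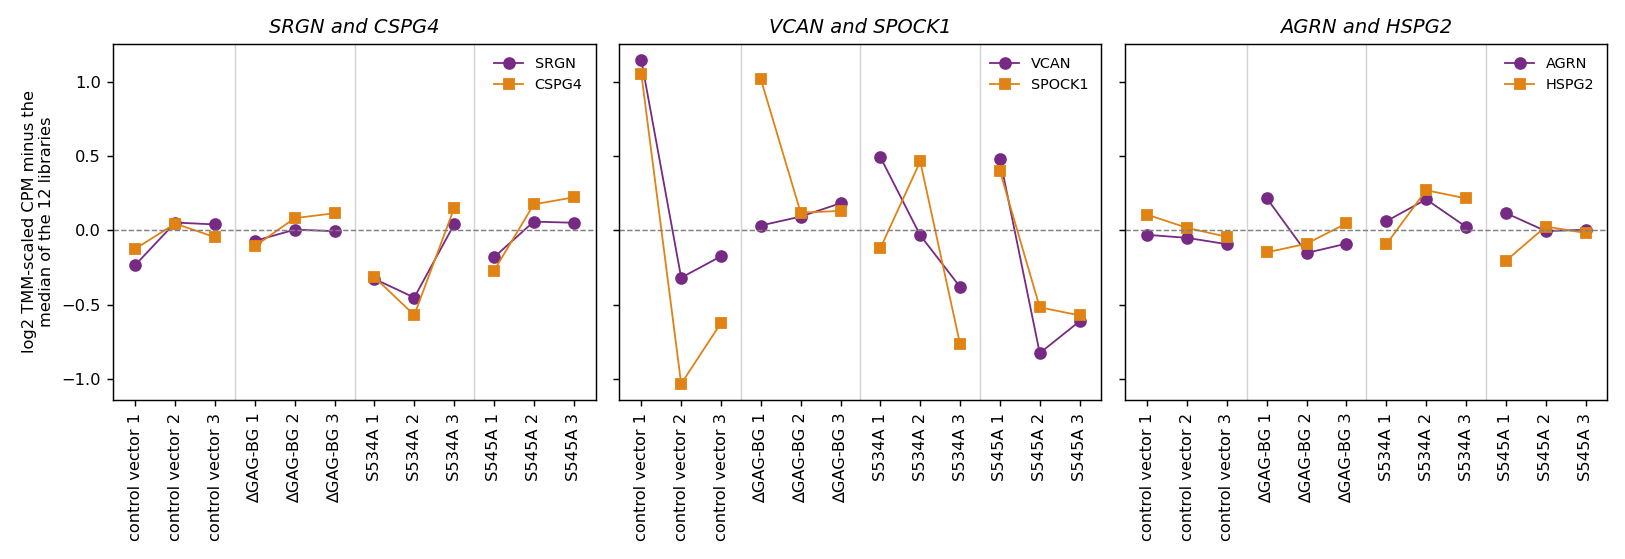
Log2 TMM-scaled CPM minus the median of the 12 libraries (vertical axis) for 3 pairs of core proteins, by library (horizontal axis). SRGN and CSPG4 dip together in libraries 1 and 2 of S534A, VCAN and SPOCK1 share the high library 1 of control vector, and AGRN and HSPG2 follow no common course.

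The genes most alike to the 4 core proteins with the highest mean CPM, by Pearson's r over the 12 libraries, were MEF2A (0.981) and RP11-818F20.5 (0.981) for SRGN, CCBE1 (0.982) and TBC1D8 (0.979) for CSPG4, KLHL35 (0.946) and MTG2 (0.932) for AGRN, and CLSTN1 (0.903) and CROT (0.890) for HSPG2. These are the highest over all genes tested, and libraries 2 and 3 of 3 groups were close to each other, so the number of independent points is below 12.

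Other matrix proteoglycans and their link proteins were read from the same test. Of 35 such genes, 9 could be tested and 6 were at 0 throughout, and none had an unadjusted p under 0.05 in any comparison. The highest were ESM1 (endocan, a secreted dermatan sulfate proteoglycan) at 555 to 1208 CPM and COL18A1 (collagen XVIII, a basement membrane HS proteoglycan) at 82.9 to 103 CPM. The median log2 fold change of the 9 lay between -0.10 and 0.08 over the 6 comparisons. Groups did not overlap for 2 of the 9, TSKU and COL18A1, in ∆GAG-BG against control vector (both higher), against 4.87% of all genes. For S545A against S534A this held for 1 of the 9, HAPLN3 (lower), against 10.1% of all genes. With S534A library 3 left out, 3 of the 9 had an unadjusted p under 0.05 in S534A against control vector and 3 when S545A was set against S534A, and 1 to 2 did in some comparison without library 1 of any 1 of the 4 groups. HAPLN3 had the highest level of the link proteins, which tie aggrecan and versican to hyaluronan, at 0.548 to 2.60 CPM.

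Of 20 enzymes that cleave these core proteins or their chains, 9 were tested and none had an unadjusted p under 0.05 in any comparison. The highest were the membrane protease MMP14 at 375 to 654 CPM and ADAMTS1, a protease of aggrecan and versican, at 98.5 to 166 CPM. HPSE, the heparanase that cuts HS chains, lay at 3.90 to 7.64 CPM. The median log2 fold change of the 9 lay between -0.18 and 0.22 over the 6 comparisons. Without any of the 3 S534A libraries, or without library 1 of S545A or control vector, 1 to 2 of the 9 had an unadjusted p under 0.05 in some comparison with S534A.

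Among 21 receptors and matrix partners, 15 were tested, with a median log2 fold change between -0.05 and 0.02 over the 6 comparisons. The highest were CD44, the hyaluronan receptor, at 912 to 1660 CPM and the integrin chain ITGB1 at 1017 to 1135 CPM. With all libraries only FN1 had an unadjusted p under 0.05, and in both comparisons with ∆GAG-BG as the second group. Besides FN1, groups did not overlap for TLR4 in ∆GAG-BG against control vector (higher) and FBN2 in S545A against control vector (lower). Of all genes, 4.87% and 8.82% did not overlap there. With a library left out, the number of the 15 with an unadjusted p under 0.05 ran from 0 to 2 for ∆GAG-BG against control vector (1 without control vector library 1, 2 without ∆GAG-BG library 1, 1 without ∆GAG-BG library 2) and from 1 to 2 for S534A against ∆GAG-BG (2 without S534A library 3 or ∆GAG-BG library 1). It ran from 0 to 1 for S534A against control vector (1 without S534A library 3 or control vector library 2 or 3) and for S545A against S534A (1 without S534A library 3 or S545A library 1). FN1 encodes fibronectin, a matrix glycoprotein to which proteoglycans bind through their chains. It lay at 1035, 434 and 437 CPM in control vector, 1412, 830 and 896 CPM in ∆GAG-BG, 493, 321 and 430 CPM in S534A, and 651, 494 and 488 CPM in S545A. All ∆GAG-BG libraries lay above all S534A and all S545A libraries, where 5.66% and 5.05% of all genes did not overlap. Control vector library 1 lay within the ∆GAG-BG range. The log2 fold change of S534A against ∆GAG-BG was -1.33 (SE 0.335), with an unadjusted p of 0.00200 and an adjusted p of 0.890 by edgeR. That of S545A against ∆GAG-BG was -0.94 (SE 0.332), with an unadjusted p of 0.0156 and an adjusted p of 1.00 by edgeR. Without ∆GAG-BG library 1 the latter came to -0.66 (unadjusted p 0.0806 by edgeR). ∆GAG-BG and control vector overlapped, with a log2 fold change of 0.72 for ∆GAG-BG (unadjusted p 0.0516 by edgeR). FN1 did not pass the adjusted test in either. Without libraries 2 and 3 of ∆GAG-BG and control vector, whose TGFBR3 goes against their labels, the log2 fold changes were -1.77 and -1.38. In that fit ∆GAG-BG is library 1 alone, and library 1 held the highest FN1 level in each of the 4 groups. The part of library 1 in these values was not tested.

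The 10 genes lie on 6 chromosomes of GRCh38 in the deposited table. AGRN spans chromosome 1 from 1020123 to 1056118 and HSPG2 chromosome 1 from 21822245 to 21937297, VCAN chromosome 5 from 83471465 to 83582303 and SPOCK1 chromosome 5 from 136975298 to 137598379. SRGN spans chromosome 10 from 69088106 to 69104811, LUM chromosome 12 from 91102629 to 91111831 and DCN chromosome 12 from 91140484 to 91183123. CSPG4 spans chromosome 15 from 75674322 to 75712848, ACAN chromosome 15 from 88803443 to 88875354 and BGN chromosome X from 153494939 to 153509554. The counted regions are the exons of each gene.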

How the data were processed

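RNA-seq counts of 12 HEYA8 libraries in 4 groups of 3 were used. The authors deposited a table of raw counts per gene, not normalized, with exon coordinates and gene length. The submitters' processing notes name FastQC, Trim Galore 0.4.5, STAR 2.4, SAMtools 1.2 and featureCounts. They name mm10 and GRCm38, although the table's coordinates are those of human GENCODE release 29 on GRCh38 for 9 of the 10 genes (ACAN starts at 88803443 in place of 88803442). The kit is directional. Whether counting used strand is not given in the sources used here. All 37 mitochondrial genes are at 0, so their share could not serve as a measure of RNA quality. All sample columns were used, and groups come from the labels.

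Genes were kept by filterByExpr (minimum count 10), scaled by TMM and tested over all 16069 genes by the robust quasi-likelihood test of edgeR 4.0.16 (R 4.3.3). All 4 groups entered 1 model, which left 8 residual degrees of freedom. Adjusted p-values are Benjamini-Hochberg over these genes. Exact permutation tests, two-sided, were run beside it. The fit was tested on simulated data. Gene lists were written by hand, and the genes and lists were chosen with earlier results of these data known. For core proteins, a fold change is given in full where the unadjusted p was under 0.05 or the groups did not overlap, and other pairs by range. Alike genes are the 2 with the highest Pearson's r, for the 4 core proteins of highest mean CPM. At most 4 genes of each related list with an unadjusted p under 0.05 are named, plus the 2 with the highest mean CPM, and TGFBR3 as the check of the construct. The small leucine-rich family, the marker genes printed, HPSE, HAPLN3, and the single pairs given with a library left out were chosen after their values were seen. So were the genes of the related lists named because their groups did not overlap.

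Alternatives were DESeq2 1.42.0, limma-voom (limma 3.58.1), other scalings, no filter, only the compared groups, the replicate number as a block, and each library left out. Leaving out libraries 2 and 3 of ∆GAG-BG and control vector, and adding up libraries 2 and 3 in the 3 groups where they were close, were set because an earlier look at these data had shown how they stand. The alternatives for FN1 and the related lists were added after seeing the data. The main fit took no account of replicate number. For S545A against control vector, deviations from the group mean correlated at 0.60, 0.30 and 0.29 between libraries of the same number. Libraries 2 and 3 were close to each other in both groups, so these values are not independent. They cannot show which library pairs with which. No label gives the pairing.

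Promoters are RefSeq's, on GRCh38.p14. Coding sequences were read from GENCODE release 29 transcripts.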

Additional observations from a re-analysis of the deposited data

How the results depend on the processing

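The log2 fold changes of AGRN kept their direction and missed the threshold under all 16 alternatives each, from 0.10 to 0.19 for S534A against control vector (adjusted p 0.480 to 1.00 by edgeR, DESeq2 or limma) and from 0.05 to 0.12 for S545A against control vector (adjusted p 0.956 to 1.00). Leaving out a library gave the same lowest and highest values for the former and 0.06 to 0.12 for the latter. The number of core proteins with an unadjusted p under 0.05, 0 in each comparison, became 0 to 2 when a library was left out for S534A against ∆GAG-BG, S534A against control vector or S545A against S534A, 0 to 1 for ∆GAG-BG or S545A against control vector, and stayed 0 in S545A against ∆GAG-BG. The share of all genes with an unadjusted p under 0.05 in these fits is not given here, so these counts cannot be set against a background. Without libraries 2 and 3 of ∆GAG-BG and control vector, these groups kept 1 library each, so no count of core proteins is given here for that fit. The number of all genes with an adjusted p under 0.05, 0 by edgeR, was 0 with any library left out. In S534A against ∆GAG-BG it became 5 by DESeq2, 1 by limma-voom, 1 without the filter and 9 without libraries 2 and 3 of ∆GAG-BG and control vector. In S534A against control vector it became 2, 1, 1 and 1 in the same order. In S545A against S534A it became 1 by DESeq2, 1 by limma-voom and 1 without the filter. For ∆GAG-BG and for S545A, each against control vector, it became 1 and 1 without those libraries. The cause was not tested.

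With the replicate number as a block, 0 core proteins had an unadjusted p under 0.05, and no adjusted call changed. The count of receptors and partners with an unadjusted p under 0.05 became 1 in 3 comparisons where it had been 0, and that of enzymes became 1 in S534A against control vector. Among the core proteins the lowest p under the block was that of VCAN in S545A against control vector (log2 fold change -0.55, unadjusted p 0.0694 by edgeR). In the other 5 comparisons, libraries of the same number did not deviate together throughout (lowest correlation of deviations -0.23). Summing libraries 2 and 3 gave 0 core proteins as well. For receptors and partners, too, no count is given for the fit that left 1 library in ∆GAG-BG and control vector.

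With 3 libraries a group, the 95% intervals reach 0.38 in log2 for AGRN but 1.78 for SPOCK1. For BGN, at 12 to 29 counts, counting error alone would give a coefficient of variation of 22.0%, where 30.0% was seen. Whether strand was used in counting bears on every level. The libraries whose TGFBR3 goes against their labels bear on the 5 comparisons with ∆GAG-BG or control vector.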
